A study of Mus musculus with 16 samples.

Results

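The nuclear genes for the mitochondrial respiratory chain and the ATP synthase were examined in 16 subcutaneous mouse tumours from 4 treatment groups. Genes were taken by symbol: every gene whose symbol begins with Nduf, Uqcr, Cox4, Cox5, Cox6, Cox7, Cox8, Atp5 or Sdh, other than Cox6a2, and that had a probe set assigned to 1 gene symbol. This gave 90 of the 17097 genes on the array, and where a gene had several probe sets the brightest on average was used. By role they comprise 32 genes of complex I, 4 of complex II, 7 of complex III, 18 of complex IV, 17 of complex V and 11 assembly factors, with 1 further symbol (Ndufs5-ps) that names a pseudogene. Ndufa4 and Ndufa4l2 were counted with complex IV.

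The respiratory chain passes electrons from NADH (complex I) and succinate (complex II) through ubiquinone to complex III, and from there by cytochrome c to complex IV, which reduces oxygen to water. Complexes I, III and IV pump protons across the inner mitochondrial membrane, and complex V, the ATP synthase, makes ATP as the protons return. Most subunits are encoded in the nucleus, and several subunits of complex IV exist in tissue forms, of which one is used in liver and most other organs and another in heart and skeletal muscle.

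The tumours came from Hepa1-6, a single mouse hepatoma line, of which cells in 50% Matrigel were placed under the skin of the flank of male C57BL/6 mice aged 5 weeks, so the tumours did not grow in the liver. Treatment began at a tumour volume of 200 to 300 cubic millimetres, and tumours were taken on day 14. The Placebo group (4 tumours) received hamster IgG at 10 mg/kg, and the AntiPD1 group (3 tumours) received the hamster antibody J43 against PD-1 at 10 mg/kg, in each case 5 intraperitoneal doses with 3 days between injections. The Cabozantinib group (5 tumours) received the oral kinase inhibitor cabozantinib daily at 30 mg/kg, and the labels do not say whether it also received IgG. The Combination group (4 tumours) received cabozantinib and J43 at the same doses. Each tumour was read on 1 Affymetrix whole-genome mouse array from 50 ng of RNA. The labels name no batch. Sample titles carry a number that some tumours share, Cabozantinib replicates 2 and 3 within a group and 3 further pairs across groups, and what it stands for is not given. P-values measure the spread between these tumours.

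Values are log2 signals, on which equal differences are equal ratios, and levels are compared between tumours for 1 probe set and never between probe sets. Array medians ran from 4.92 to 5.13. Of the genes that mark the tumour line, Alb ran from 12.84 to 13.20 and Afp from 12.41 to 12.78, so both were bright in every tumour, while Dlk1 stayed below the array medians, between 4.02 and 4.39. Skeletal muscle genes were far higher in AntiPD1 replicate 2, Cabozantinib replicate 4 and Combination replicate 4 than in the other 13 tumours, with a mean deviation over 18 muscle genes of 4.22, 3.78 and 5.06 against a highest value of 1.69 elsewhere. Fat genes were high in another 3 tumours: the mean deviation of 6 adipocyte genes was 2.94 in Cabozantinib replicate 2, 2.62 in Combination replicate 1 and 1.92 in Combination replicate 2, against at most 0.33 elsewhere. Of these, Cabozantinib replicate 2 alone was also high in brown fat genes, with Cidea at 8.58 and Ucp1 at 5.95. In whole tumours, fewer cells of a type and less RNA per cell cannot be told apart.

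Promoter sequences are shown for some of the genes described below, to place side by side the start regions of some genes that changed and of muscle forms of complex IV. Ndufs8, Ndufa3, Ndufb7 and Cox6b2, also described below, had a promoter in the table that is not printed. Of the 90 genes, 74 had a promoter in the RefSeq table (mouse build GRCm38.p6, 250 bases before to 50 bases after the start), giving 79 promoters. Both strands were searched for GCATGCGC (the core of the NRF1 motif), CCGGAAG (GABP, an ETS factor) and AAGATGGC (YY1), 3 factors known for their place at promoters of respiratory genes. At least 1 of these motifs stood in 36 of the 79 promoters (45.6%), against 13.3% of all 32851 promoters in the table. NRF1 letters were in 15.2% of the members' promoters and 2.71% of all, GABP letters in 25.3% and 8.86%, and YY1 letters in 13.9% and 2.75%. By gene, complex V held a motif in 9 of 15 and the assembly factors in 7 of 10, whereas complex IV did so in 3 of 13. Capitals below mark an NRF1 match, overlapping on both strands in Atp5k; a window with none of the 3 motifs is shown as the 80 bases before the start. No match says only that these letters are not in the window.
Sdhb, chr4:140961202-140961239, + strand: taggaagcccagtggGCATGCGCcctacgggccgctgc
Atp5k, chr5:108434425-108434464, - strand: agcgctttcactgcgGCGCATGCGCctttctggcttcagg
Ndufv3, chr17:31520035-31520114, + strand: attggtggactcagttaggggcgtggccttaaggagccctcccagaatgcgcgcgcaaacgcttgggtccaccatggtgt
Ndufa4, chr6:11907451-11907530, - strand: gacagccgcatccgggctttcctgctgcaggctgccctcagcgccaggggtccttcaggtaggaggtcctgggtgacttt
Ndufa1, chrX:37191239-37191318, - strand: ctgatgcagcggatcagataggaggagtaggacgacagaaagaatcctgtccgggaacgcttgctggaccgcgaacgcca
Cox7a1, chr7:30184091-30184170, + strand: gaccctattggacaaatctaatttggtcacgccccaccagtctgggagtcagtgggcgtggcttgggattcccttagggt
Cox8b, chr7:140900447-140900526, - strand: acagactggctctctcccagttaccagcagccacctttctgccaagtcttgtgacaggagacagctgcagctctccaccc
Sdhb and Atp5k also held GABP letters just after the start. Of the 11 members that passed the threshold in any comparison, 8 had a promoter in the table, of which 4 held a motif (Sdhb, Atp5k, Ndufa3 and Ndufb7) and 4 held none (Ndufv3, Ndufa4, Ndufa1 and Cox6b2); Ndufaf6, Atp5mpl and Ndufb9 had no entry.

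As a group the genes varied little between tumours. The residual SD within treatment groups had a median of 0.0875 over the 90 genes, against 0.156 over all genes. Since spread falls with brightness, the same was taken over genes with a mean signal of at least 10, where the median was 0.0752 for 68 members and 0.109 for all 1636 such genes. Complex V was the tightest group, with a median of 0.0597, and the assembly factors the widest, with 0.137. The 3 members with the widest spread were Cox8b, Cox7a1 and Ndufa4l2. Among the dimmest members were 4 tissue forms, Cox4i2, Cox6b2, Cox7b2 and Cox8c, whose mean signal did not exceed the highest array median.

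**Figure D1:**
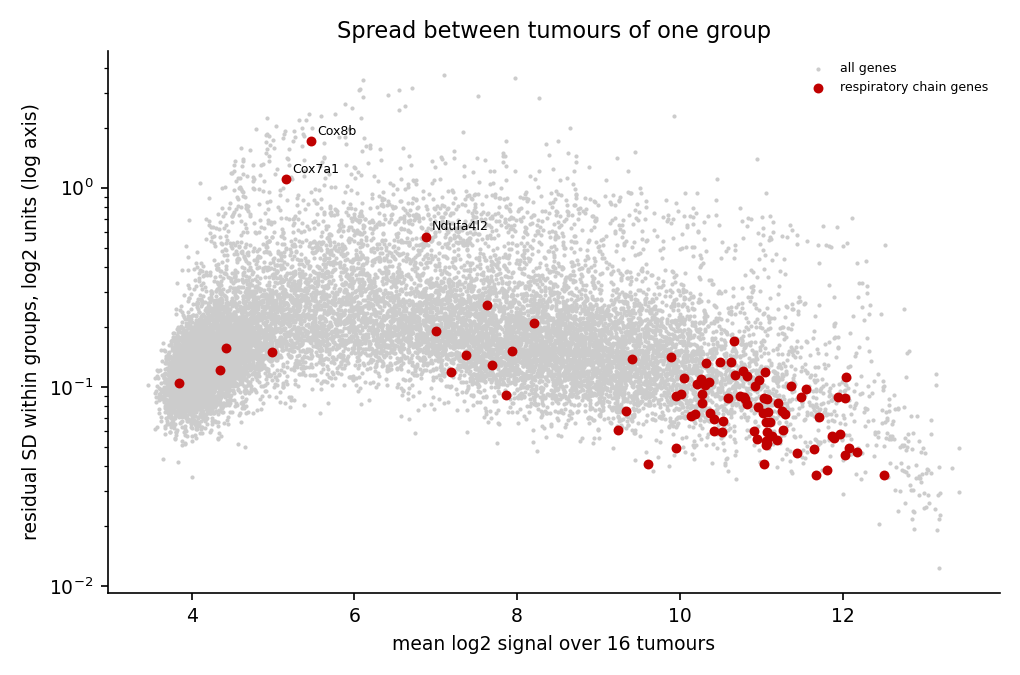
Residual SD within the 4 treatment groups (log axis, log2 units) against mean log2 signal over 16 tumours, 1 point per gene, grey for all 17097 genes and red for the 90 respiratory chain genes. Most red points lie right of a signal of 10 and low in the grey cloud, with Cox8b, Cox7a1 and Ndufa4l2 above the rest.

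Cabozantinib alone left no respiratory chain gene past the threshold (limma, Benjamini-Hochberg adjusted p under 0.05 over all genes), where 0.257% of all genes passed. Differences from Placebo were small and mostly negative: 73 of 90 genes were lower in the Cabozantinib group, including 17 of 17 genes of complex V, 7 of 7 of complex III and 28 of 32 of complex I, against 8546 of 17097 genes overall. These genes were read on the same tumours, so they are not independent. By tumour, the mean deviation of complex I ran from -0.07 to 0.03 under Cabozantinib and from 0.01 to 0.10 under Placebo. That of complex III ran from -0.12 to 0.05 and from 0.0004 to 0.11, so both overlapped. For complex V the highest Cabozantinib tumour, at -0.0064, was below the lowest Placebo tumour, at 0.004. The median difference was -0.08 for complex I, -0.07 for complex II, -0.10 for complex III, -0.01 for complex IV, -0.10 for complex V and -0.13 for the assembly factors, beside 0.0001 for all genes. Over genes brighter than the highest array median, the median was -0.02. At an unadjusted p under 0.05, 16 members were lower and 1 was higher, or 17.8% and 1.11% of the members, where 7.07% and 5.91% of all genes lay on those sides. The 2 groups did not overlap for 10 of the 90 genes, against 4.51% of all genes. The 95% interval of the difference lay within a 1.25-fold change either way for 76 of the 90 genes (84.4%), against 49.5% of all genes. The counts and shares of all genes include dim genes and were not matched to the members for brightness. Hybridisation controls, which are spiked in after the RNA is labelled, averaged 9.94 ± 0.31 (SD, n = 5) in the Cabozantinib group and 9.24 ± 0.43 (SD, n = 4) in the Placebo group, and labelling controls 9.06 ± 0.29 and 8.31 ± 0.61 in the same groups. Their part in the shift was not tested.

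The member with the largest moderated statistic was Ndufs8, a core iron-sulfur subunit of complex I. It read 10.70, 10.89, 10.9957 and 10.69 in the Placebo tumours and 10.66, 10.44, 10.33, 10.27 and 10.48 under Cabozantinib. Each Cabozantinib tumour was below each Placebo tumour, by a mean of 0.38 ± 0.09 (SE), with an adjusted p of 0.0918 that misses the threshold (limma). The other 3 probe sets of Ndufs8 differed by -0.29, -0.16 and -0.32, all on the same side, although the second of these sits near background. Next came Atp5pb, a stator subunit of the ATP synthase, at -0.20 ± 0.05 (adjusted p = 0.121), and Ndufc2 at -0.15 ± 0.05 (adjusted p = 0.234), both by limma.

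**Figure D2:**
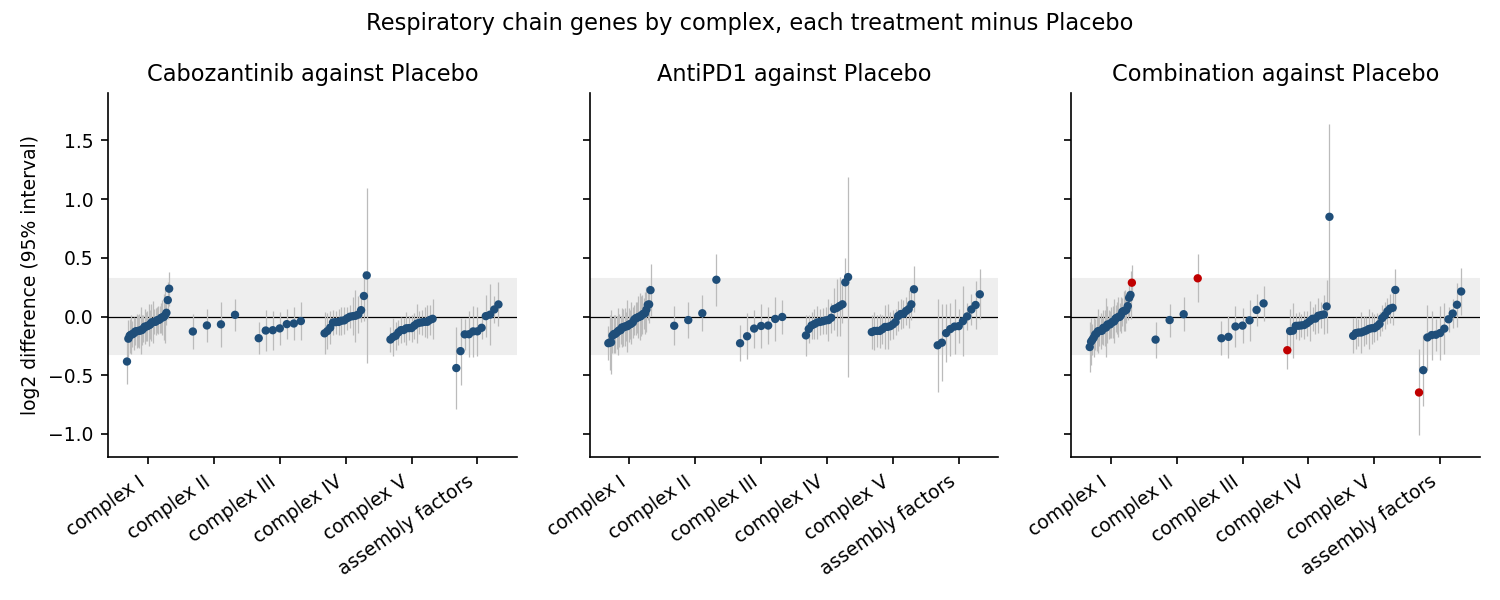
Log2 difference from Placebo (y axis, with 95% interval) for each respiratory chain gene by complex, for Cabozantinib, AntiPD1 and Combination; red points passed the threshold, the grey band is a 1.25-fold change either way, and Cox7a1 and Cox8b are left out because their intervals run beyond the axis. Most points sit inside the band, and red points appear only for Combination, where 4 genes passed.

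AntiPD1 against Placebo also called no member, where 0.0292% of all genes passed. At an unadjusted p under 0.05 there were 7 members, against 19.2% of all genes, and the groups did not overlap for 21 of 90, against 21.5% of all genes. As shares these are 7.78% and 23.3% of the members, the first lower than and the second close to that of all genes. Medians by role ran from -0.08 to -0.0014, beside -0.03 for all genes, with those of complexes II and IV and of the assembly factors on either side of 0 as 1 tumour was left out, and 59 of 90 differences were negative. Over genes brighter than the highest array median, the median was -0.06.

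Combination against Placebo called 4 of the 90 members, where 10.4% of all genes passed, beside 4.44% of the members; the difference between these shares was not tested. Without Placebo replicate 2, 3 or 4, or without Combination replicate 2, none of the members passed, and without the 3 muscle-rich tumours 2 did. Without the 3 fat-rich tumours, which include Combination replicates 1 and 2, none passed, with the differences at 0.28 for Ndufv3, 0.27 for Sdhb, -0.26 for Ndufa4 and -0.62 for Ndufaf6. Of the 4, 2 rose and 2 fell, against 3.71% of all genes that rose and 6.64% that fell. The groups did not overlap for 16 of 90 members, against 20.9% of all genes. The intervals of 67 members lay within a 1.25-fold change, or 74.4%, against 39.5% of all genes, dim genes included. The 3 comparisons with Placebo share the same 4 control tumours.

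Ndufv3, an accessory subunit in the NADH-binding part of complex I, rose under Combination. It read 10.74, 10.70, 10.62 and 10.50 under Placebo and 10.90, 10.97, 10.88 and 10.96 under Combination. The groups did not overlap, and the difference was 0.29 ± 0.07 (SE; limma adjusted p = 0.0282). Under Cabozantinib alone it read 10.85, 10.97, 10.94, 10.85 and 10.78, also above every Placebo tumour, at a difference of 0.24 ± 0.07 that did not pass (limma adjusted p = 0.152). In the AntiPD1 tumours, at 10.73, 10.73 and 10.51, it lay within the Placebo range.

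Sdhb, the iron-sulfur subunit of succinate dehydrogenase (complex II), rose too. It was 10.50, 10.20, 10.51 and 10.31 under Placebo and 10.69, 10.83, 10.53 and 10.78 under Combination, with the lowest Combination tumour just above the highest Placebo tumour. The difference was 0.33 ± 0.10 (limma adjusted p = 0.0450). This call was lost in 8 of the 16 fits that left out 1 tumour, with the muscle score as a covariate, without the muscle-rich tumours and in a fit of the compared groups alone. AntiPD1 tumours read 10.66, 10.82 and 10.60 and lay in the Combination range, whereas Cabozantinib tumours, at 10.18, 10.30, 10.52, 10.34 and 10.23, lay with Placebo. The other subunits of complex II did not pass in this comparison: Sdha differed by -0.03, Sdhc by 0.02 and Sdhd by -0.20. A second bright probe set of Sdha, with a mean signal of 10.16, lay on the other side, at 0.16.

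Ndufa4, a small subunit now placed with complex IV, fell under Combination. It was 11.63, 11.70, 11.76 and 11.69 under Placebo and 11.47, 11.28, 11.37 and 11.51 under Combination, without overlap, a difference of -0.29 ± 0.08 (limma adjusted p = 0.0342). The AntiPD1 tumours, at 11.5151, 11.4656 and 11.6264, also lay below the lowest Placebo tumour, at 11.6286. Under Cabozantinib alone it read 11.55, 11.70, 11.40, 11.68 and 11.53, a difference of -0.12. Neither drug alone passed. Ndufaf6, an assembly factor of complex I, fell by 0.65 ± 0.17 on the log2 scale (limma adjusted p = 0.0351), from 7.79, 8.07, 7.98 and 8.07 to 7.41, 7.20, 7.39 and 7.34. The groups did not overlap, while the AntiPD1 tumours, at 7.72, 7.33 and 8.15, spanned both. Under Cabozantinib alone Ndufaf6 read 7.88, 7.73, 7.28, 7.15 and 7.67, a difference of -0.44 that did not pass. With 1 tumour left out, the Combination call of Ndufaf6 was lost in 7 of 16 fits, including those without any 1 Combination tumour. The Combination call of Ndufa4 was lost in 5 of these fits and that of Ndufv3 in 4. Just short of the threshold lay Ndufaf2, another complex I assembly factor, at -0.46 ± 0.14 (limma adjusted p = 0.0522).

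**Figure D3:**
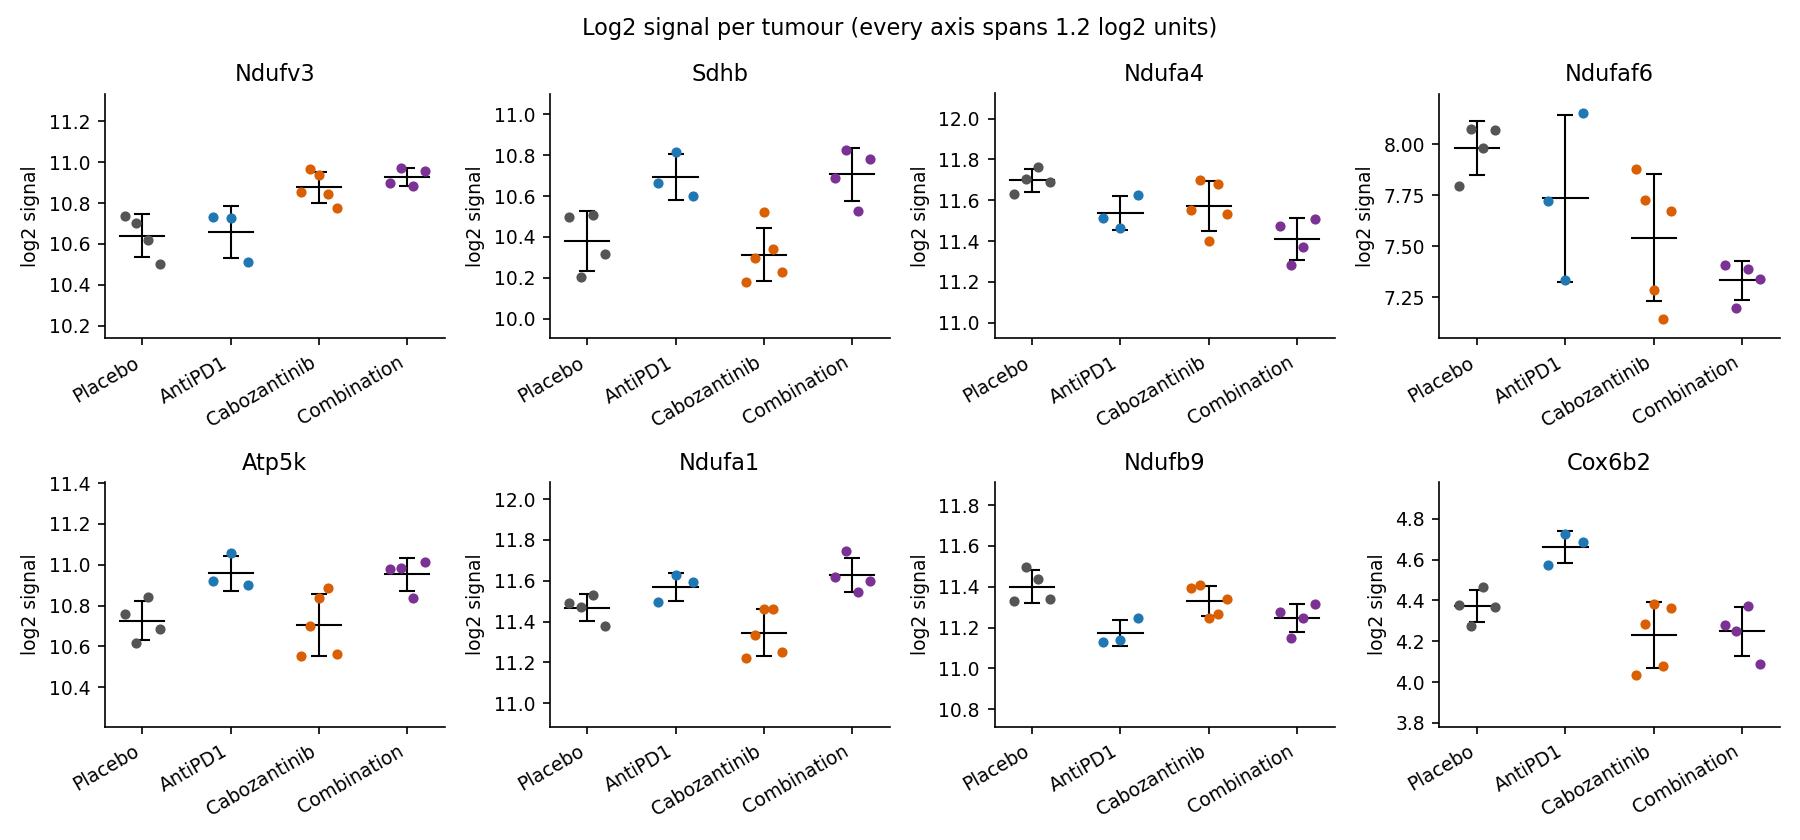
Log2 signal per tumour (points), with the group mean and SD (bars), of 8 of the genes that passed the threshold in any comparison, each axis spanning 1.2 log2 units. Ndufv3 has higher means in both cabozantinib groups and Sdhb and Atp5k in both antibody groups, and Ndufaf6 has its lowest mean under Combination.

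The 2 drugs can also be read as averages over the 4 groups. For cabozantinib averaged over antibody 2 members passed, or 2.22%, close to the 2.12% of all genes. By direction, 1.11% of the members were higher and 1.11% lower, beside 0.860% and 1.26% of all genes. Ndufv3 rose by 0.25 ± 0.05 (limma adjusted p = 0.0203). Cox6b2, the testis form of a complex IV subunit, fell by 0.28 ± 0.06 (limma adjusted p = 0.0371) at a signal near background, where its tumours read between 4.03 and 4.73. Neither passed without the 3 muscle-rich tumours, without the 3 fat-rich tumours or without AntiPD1 replicate 3. With 1 tumour left out, the call of Cox6b2 was lost in 9 of 16 fits and that of Ndufv3 in 1. Cox6b2 averaged 4.37 under Placebo, 4.66 under AntiPD1, 4.23 under Cabozantinib and 4.25 under Combination. Ndufs8 did not pass, at an adjusted p of 0.0689 (limma).

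Averaged over cabozantinib, the antibody changed 7 members, or 7.78%, where 18.0% of all genes passed (8.33% higher and 9.66% lower). Sdhb rose by 0.35 ± 0.07 (limma adjusted p = 0.0110), the largest of them. Atp5k, subunit e of the ATP synthase, rose by 0.24 ± 0.06 (limma adjusted p = 0.0198). It read 10.76, 10.62, 10.84 and 10.69 under Placebo, 10.92, 11.06 and 10.90 under AntiPD1, 10.55, 10.70, 10.84, 10.88 and 10.56 under Cabozantinib and 10.98, 10.98, 10.84 and 11.02 under Combination. Its other probe set differed by 0.22 on average. Among accessory subunits of complex I, Ndufa1 rose by 0.19 ± 0.05, Ndufa3 by 0.13 ± 0.04 and Ndufb7 by 0.21 ± 0.07, and Atp5mpl of the ATP synthase rose by 0.13 ± 0.04. With 1 tumour left out, the calls of Ndufa3 and Ndufb7 were each lost in 12 of 16 fits and that of Atp5mpl in 8, against 2 for Ndufa1, 1 for Atp5k and 0 for Sdhb. Ndufb9 was the 1 member that fell, by 0.16 ± 0.04 (limma adjusted p = 0.0304), a call lost in 7 of the 16 fits. Of all 32 complex I genes, 14 differences were positive and 18 negative, so the direction was not shared. Without AntiPD1 replicate 2 the count of members called was 1, and without the 3 muscle-rich tumours it was 2. Without these and Cabozantinib replicate 2, or without the 3 fat-rich tumours, it was 0.

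Marker genes of other cells also differed between the groups: leukocyte genes had a mean deviation of -0.57 ± 0.57 (SD, n = 4) under Placebo, 0.60 ± 0.19 (n = 3) under AntiPD1, -0.51 ± 0.98 (n = 5) under Cabozantinib and 0.76 ± 0.32 (n = 4) under Combination. All 6 leukocyte markers measured were higher in the averaged comparison and 5 rose. Fibroblast genes averaged -0.54, 0.54, -0.30 and 0.52 in the same order of groups, and 3 of their 5 markers rose. Adipocyte genes averaged -0.73, -0.56, -0.03 and 1.19, and none of 6 passed. Endothelial genes averaged 0.36, 1.31, -0.71 and -0.45 in the same order. Of their 5 markers, 3 rose for the averaged antibody and 5 fell for averaged cabozantinib. The tumour line's own genes were lowest under Combination, at -0.42 ± 0.475 (SD, n = 4), with Combination replicate 4 at 0.27. Of these 6 genes, 5 were lower than under Placebo, unevenly: Ttr averaged 10.17 under Placebo and 7.94 under Combination, and Alb 13.17 and 12.95. Dlk1 was higher, at 4.16 and 4.24. The part of these cell types in the calls above was not tested. None of the 90 members passed for the interaction of the drugs, where 0% of all genes did, and 3 members had an unadjusted p under 0.05, against 2.57% of genes.

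Combination against Cabozantinib called no member, where 0.00585% of genes passed, and had 10 members higher and 1 lower at an unadjusted p under 0.05, against 9.91% and 12.6% of all genes. Sdhb (0.39 ± 0.09, limma adjusted p = 0.0751) and Ndufa1 (0.28 ± 0.07, limma adjusted p = 0.0759) led. Combination against AntiPD1 called none either, where 0.234% of genes passed, and 5 members had an unadjusted p under 0.05, against 7.21% of genes.

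**Figure D4:**
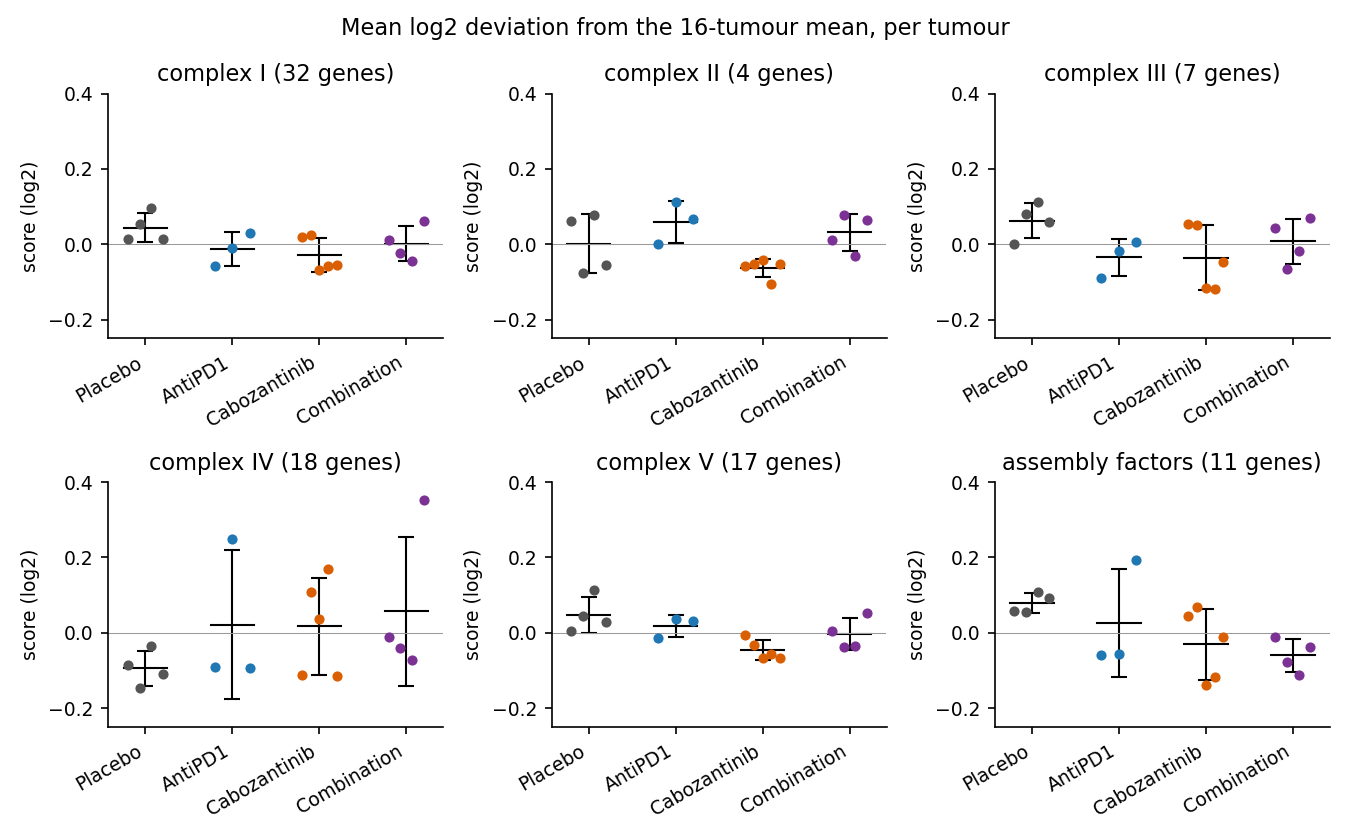
Mean log2 deviation from the 16-tumour mean for the genes of each complex, 1 point per tumour, with group mean and SD (bars). Complex IV spreads more than the others and holds its highest value, 0.35, in Combination replicate 4, while complexes I, II, III and V stay between -0.12 and 0.11.

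The complex IV score, the mean deviation of its 18 genes, was 0.25 in AntiPD1 replicate 2 and 0.35 in Combination replicate 4, against at most 0.17 elsewhere. Without Cox7a1 and Cox8b, the muscle forms of 2 subunits, complex IV averaged -0.0041, 0.0169, -0.0035 and -0.0043 in the Placebo, AntiPD1, Cabozantinib and Combination groups, with an SD of at most 0.0461 in any group. Cox7a1 read 4.72, 4.29, 4.52 and 4.62 under Placebo and 4.65, 4.70, 4.83 and 8.29 under Combination. In the AntiPD1 group it read 4.52, 6.94 and 4.44, and under Cabozantinib 5.35, 4.99, 5.19, 5.87 and 4.59. Cabozantinib replicates 1, 2 and 3 thus also lay above every Placebo tumour, with muscle scores of -1.72, -1.68 and 1.69. The 3 highest tumours, AntiPD1 replicate 2, Cabozantinib replicate 4 and Combination replicate 4, are the 3 with high muscle genes. Cox8b was 7.71, 7.53 and 9.13 in the same 3 tumours, and also 7.9981 in Cabozantinib replicate 2, the tumour high in brown fat genes, where the muscle form Cox6a2, outside the rule, read 4.89. In the other fat-rich tumours, Combination replicates 1 and 2, Cox8b read 5.71 and 4.84. Against Placebo, Cox7a1 differed by 1.08 ± 0.71 and Cox8b by 1.64 ± 1.10 under Combination, and neither passed (limma adjusted p = 0.340 and 0.352). Without Combination replicate 4 these differences were 0.19 and 0.62. Under AntiPD1 they differed by 0.76 and 0.98, and without AntiPD1 replicate 2 by -0.06 and -0.15. Under Cabozantinib alone Cox7a1 differed by 0.66 and Cox8b by 1.33, and neither passed. With 1 tumour left out, these ran from 0.49 to 0.81 and from 0.78 to 1.78. Their lowest values in any alternative fit were 0.21 and 0.02. The counterparts used in most tissues did not rise with the muscle genes in that way: Cox6a1 stayed between 12.42 and 12.61 and Cox8a between 10.98 and 11.18, and both were lowest in Combination replicate 4. In AntiPD1 replicate 2, Cabozantinib replicate 4 and Combination replicate 4, Cox8a read 11.05, 10.99 and 10.98, against at least 11.08 elsewhere. Cox6a1 read 12.52, 12.60 and 12.42 in these tumours, and Cox7a2 read 11.88, 11.95 and 11.84.

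**Figure D5:**
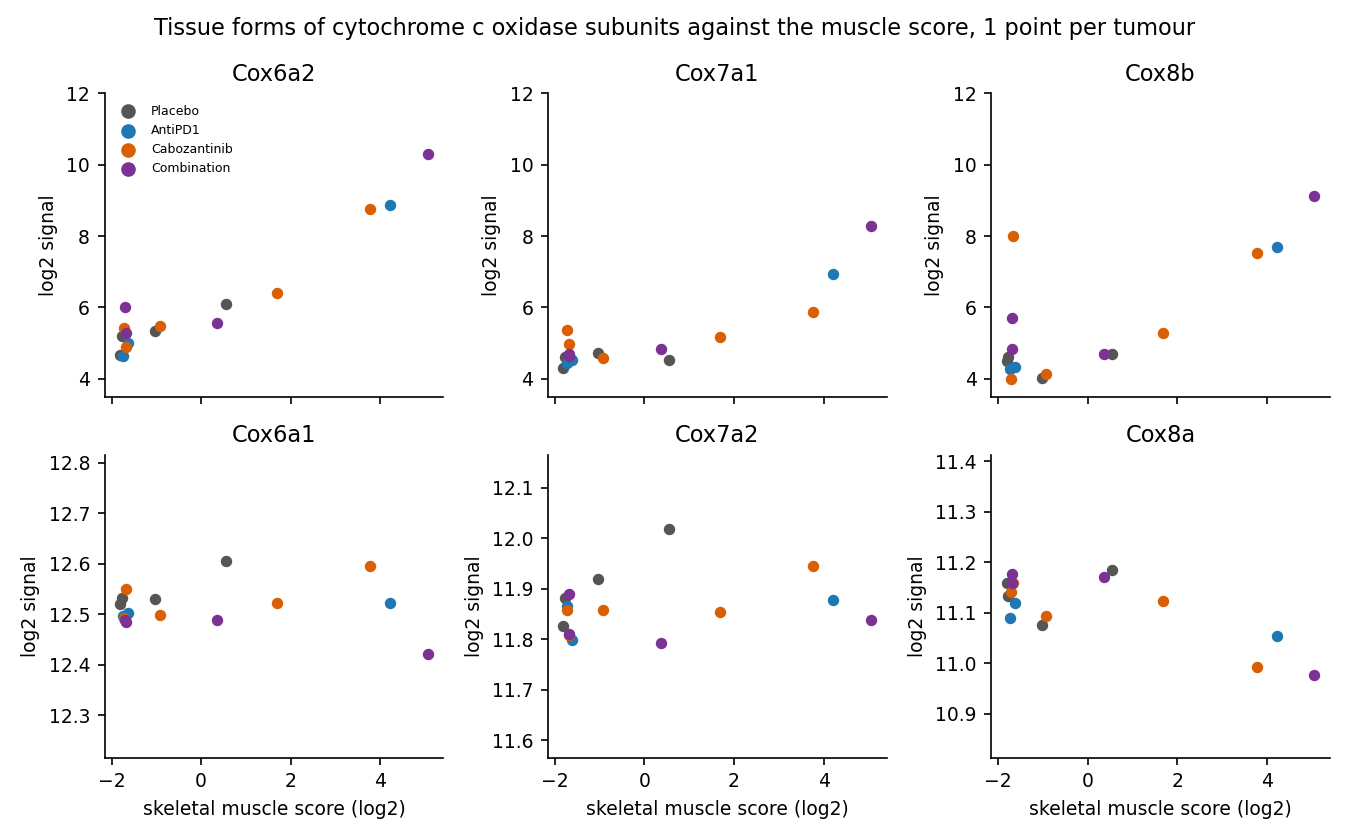
Log2 signal (y axis) of 6 complex IV genes against the mean deviation of 18 skeletal muscle genes (x axis), 1 point per tumour coloured by treatment. Cox6a2, Cox7a1 and Cox8b are highest in Combination replicate 4, the tumour with the highest muscle score, and Cox8b is also high in Cabozantinib replicate 2, at the left; Cox6a1, Cox7a2 and Cox8a are drawn on a narrower scale.

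Ndufa4l2, a paralogue of Ndufa4 known to be induced by low oxygen, had the widest spread after the muscle forms. It read 6.90, 6.26, 6.58 and 6.23 under Placebo and 7.36, 7.95, 7.19 and 6.87 under Combination, a difference of 0.85 ± 0.37 that did not pass (limma adjusted p = 0.140). Under Cabozantinib alone 1 tumour was at 8.09 and another at 5.75, and AntiPD1 tumours read 6.89, 6.995 and 6.60. The groups overlapped. Cox4i2, the other low-oxygen form among the members, stayed near background.

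Genes outside the rule that serve the same organelle were measured on the same arrays. Mitochondrial ribosome proteins, which translate the subunits encoded in mitochondrial DNA, fell for 10 of 73 genes under Combination against Placebo and rose for none, beside 6.64% of all genes that fell and 3.71% that rose, with a median of -0.19, against -0.02 for all genes. Over genes brighter than the highest array median, the median was -0.06. Mrpl16, for example, fell by 0.44 ± 0.10. The ribosome list was also lower under each drug alone, with a median of -0.13 under Cabozantinib and -0.14 under AntiPD1 and no gene past the threshold. For the antibody averaged over cabozantinib 11 of the 73 fell and 1 rose, beside 9.66% and 8.33% of all genes. Of 16 regulators of mitochondrial genes, 3 fell under Combination: Tfam, which packages mitochondrial DNA (-0.47 ± 0.11), the mitochondrial RNA polymerase Polrmt (-0.48 ± 0.10) and the helicase Twnk (-0.50 ± 0.12). Tfam was also lower under Cabozantinib (-0.42 ± 0.10) and AntiPD1 (-0.33 ± 0.12), without passing. Twnk also fell for the averaged antibody (-0.47 ± 0.09) and Polrmt for averaged cabozantinib (-0.31 ± 0.07). Of 15 genes of the citric acid cycle and pyruvate dehydrogenase, 1 fell under Combination (Fh1, -0.42 ± 0.11), and of 29 assembly genes outside the rule, Surf1 rose and Tmem70 and Ecsit fell. Of 6 genes for cytochrome c and other electron carriers, none passed. Genes of low oxygen and mitophagy rose in 2 of 11, Bnip3l and Car9, under Combination, and in 6 of 11 for cabozantinib averaged over antibody, where 0.860% of all genes rose. Differences between the lists themselves were not tested.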

How the data were processed

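The deposited table holds log2 signals of 45141 probe sets for 16 tumours, made by the authors with RMA (affy 1.62.0, per the submitters' processing notes); a change shared by most genes would be reduced by such normalization. Control probe sets and probe sets with no or several gene symbols were left out, leaving 17097 genes, each read from its brightest probe set. Members and gene lists were chosen with earlier results of these data known. Group means of the 4 treatments were fitted to all genes with limma 3.58.1 in R 4.3.3 (lmFit and eBayes), 12 residual degrees of freedom, with Benjamini-Hochberg adjustment over all genes and a threshold of 0.05. The procedure was tested on simulated data first. Named genes were the members past the threshold, or where fewer than 5 passed those with the largest moderated statistic, and a fixed panel of subunits with paralogues; other genes come from lists fixed in the same way. Alternatives were quantile normalization, all probe sets averaged, no _s_ or _x_ probe sets, array weights, trend and robust moderation, a filter on dim genes, the compared groups alone, the muscle score as a covariate, no muscle-rich tumours, each tumour left out and, added after seeing the data, no brown-fat or fat-rich tumours and the number in sample titles as a block. The number of arrays limits precision. Promoters are RefSeq's, matched by gene ID, and those printed were chosen with the results known. Cox6a2 was left out by the rule.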

Additional observations from a re-analysis of the deposited data

Results flagged for a closer look

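Of 132 groups of 4 or 5 tumours tested, 13 held a tumour far from its group, and chance alone gives about 1 in 20. Atp5mpl was low in Placebo replicate 2, at 10.4475, and Cox4i1 was high in Placebo replicate 3, at 12.0967. Cox4i2 was high in Placebo replicate 1, at 4.7447. Cox6a1 was high in Placebo replicate 3, at 12.6058, and low in Combination replicate 4, at 12.4217. Cox7a1 was high in Combination replicate 4, at 8.2937, where Cox8a was low, at 10.9763. Sdhd was high in Combination replicate 2, at 7.8904. The complex II score was low in Cabozantinib replicate 4, at -0.1046, and the complex IV score was high in Combination replicate 4, at 0.3514. The adipocyte score was high in Placebo replicate 4, at -0.316, and in Cabozantinib replicate 2, at 2.9357, where the brown fat score was also high, at 1.9344.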

How the results depend on the processing

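The count of members called under Combination against Placebo was 4, and became 8 with array weights, 7 with trend and robust moderation, and 2 without the 3 muscle-rich tumours. Without the 3 fat-rich tumours (chosen after seeing the data) it was 0, as were the counts of both averaged comparisons, and the complex V median was -0.0608. Leaving out 1 tumour gave 0 to 7: 0 without Placebo replicate 2, 3 or 4 or Combination replicate 2, and 7 without Placebo replicate 1. For AntiPD1 against Placebo array weights gave 3 calls, and for Combination against Cabozantinib 4, where leaving out 1 tumour gave 0 to 3 (3 without Cabozantinib replicate 3). For cabozantinib averaged over antibody the count of 2 became 1 with the filter on dim genes and 0 without the muscle-rich tumours, with or without the brown-fat tumour (the latter set chosen after seeing the data), and leaving out 1 tumour gave 0 to 2. For the antibody averaged over cabozantinib the 7 became 14 with array weights, 2 without the muscle-rich tumours, 0 without these and the brown-fat tumour, and 1 to 9 with 1 tumour left out. Sdhb kept this averaged call in all 16 leave-outs and lost it without the muscle-rich and brown-fat tumours and without the fat-rich tumours. The assembly factors' median under AntiPD1 ranged from -0.1379 to 0.0055 with 1 tumour left out, and that of complex V under Combination from -0.1206 to -0.0579. The complex II median ranged from -0.0248 to 0.0308 under AntiPD1, -0.0289 to 0.0147 under Combination and -0.1204 to -0.0331 under Cabozantinib, and that of complex IV from -0.0449 to 0.0047 under AntiPD1. Cox7a1 and Cox8b under AntiPD1 turned to -0.0589 and -0.1539 without the muscle-rich tumours, without these and the brown-fat tumour, or without AntiPD1 replicate 2, and ranged up to 1.1959 and 1.5608 with other tumours left out. No other single-gene difference recomputed here changed sign. The cause was not tested. The replicate numbers used here are accession order and pair nothing. The number in the sample titles is shared by 4 pairs of tumours, whose deviations from the group means correlated at -0.711 within Cabozantinib and at 0.0857, 0.0719 and 0.2574 across groups. The median over tumours with different numbers was -0.0523. Within 1 group, subtracting the group mean itself lowers the correlation. So few pairs cannot show whether the number marks a block, and the main fits did not use it. As a random replicate block (added after seeing the data) it left 4 calls for Combination against Placebo, 2 for averaged cabozantinib and 6 for the averaged antibody. As a fixed replicate block over the 8 tumours that share a number, with 2 residual degrees of freedom, it gave 0 calls for the averaged antibody and turned Cox8b under AntiPD1 to -0.249; Combination against Placebo could not be fitted that way.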
